A study of Mus musculus with 5 samples.

Results

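Effector Th1 cells labelled TOFA were compared with effector Th1 cells labelled Rap, which are 2 of the 5 samples of the series, each measured on 1 Affymetrix mouse expression array. All probe sets with 1 gene symbol entered the comparison, 34945 of the 45101 on the array. Both samples were primary CD4 T cells from the spleens of BALB/c mice that had been kept for 5 days in Th1 culture, to which IL-2 (15 ng/ml) and IL-12 (10 ng/ml) were added. Doses, the age and number of the mice and any batch are not given in the labels. The remaining arrays held memory Th1 cells, control effector cells and naive CD4 T cells. The control effector array took part in the common normalization and in choosing the brightest probe set of each gene, and in no comparison reported here. The study's title names the enzyme Acc1 and the memory potential of CD4 T cells, and the question addressed here is which gene programmes distinguish the TOFA array from the Rap array.

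TOFA blocks acetyl-CoA carboxylase, which supplies malonyl-CoA for fatty acid synthesis. Rap is not spelled out in the labels. Rapamycin, an inhibitor of the nutrient-sensing kinase complex mTORC1, is one compound commonly shortened this way, and which compound was used was not established from the sources used here. In general, mTORC1 promotes the translation of ATF4, a transcription factor that induces amino acid transporters, amino acid synthesis enzymes and tRNA synthetases, and promotes the activity of SREBP, the transcription factors of sterol and fatty acid synthesis. ATF4 is also induced when stress kinases phosphorylate the initiation factor eIF2alpha. In effector T cells, IL-2 acts through STAT5, while transcription factors such as Eomes, Klf2 and Id3 are associated with memory or resting cells.

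The TOFA array had higher signals than the Rap array for genes of the ATF4 response, of cholesterol synthesis and fatty acid desaturation, and for antiviral interferon stimulated genes. It had lower signals for Eomes and most other genes of a T cell memory list, for most cytotoxic granule genes, and by small amounts for mitosis genes. The T cell memory list does not describe the memory array of this series, on which Eomes had a signal of 188, against 245 in naive cells. Signals were quantile normalized, a floor was set at 43.4 (their 40th percentile), and the brightest probe set stood for each gene. Of 12783 genes above the floor in at least 1 of the 2 arrays, 415 (3.25%) had a TOFA signal of at least 2 times the Rap signal, and 172 (1.35%) had one at least 2-fold lower, 4.59% in all. Above 0 on the log2 scale were 52.8% and below 0 were 47.1%. List counts given below are to be read beside these shares. A fold is written as "at least" where 1 array was at the floor, which was so for 94 of the higher and 62 of the lower genes. Log2 differences of other probe sets with 1 array under the floor are likewise bounds, though not all are marked as such. These include probe sets of Nupr1, Srxn1, Elovl7, Dhx58, Tnfrsf9, Cox6a2 and Nt5e. At least 4-fold apart were 48 higher and 5 lower genes.

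Each group has 1 array, so there is no spread between replicates and no p-value, and all differences describe these arrays only. The only internal measure of error was the spread between probe sets of 1 gene, whose SD was 0.341 on the log2 scale over 6119 genes with several probe sets. This leaves out whatever all probe sets of a gene share, such as a difference between single cultures. Among genes at least 2-fold higher, the other probe sets went the same way for 151 of 169 (89.3%) and were also past 2-fold for 61. Among genes at least 2-fold lower these counts were 45 of 55 (81.8%) and 13. Genes whose brighter array had a signal over 2000 were past 2-fold in 2.30% of 2657 cases, against 8.07% of 2527 genes with a brighter signal between 150.5 and 500. The count of genes past 2-fold depended on the floor, being 2423 with a floor at the 20th percentile and 237 at the 60th.

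**Figure D1:**
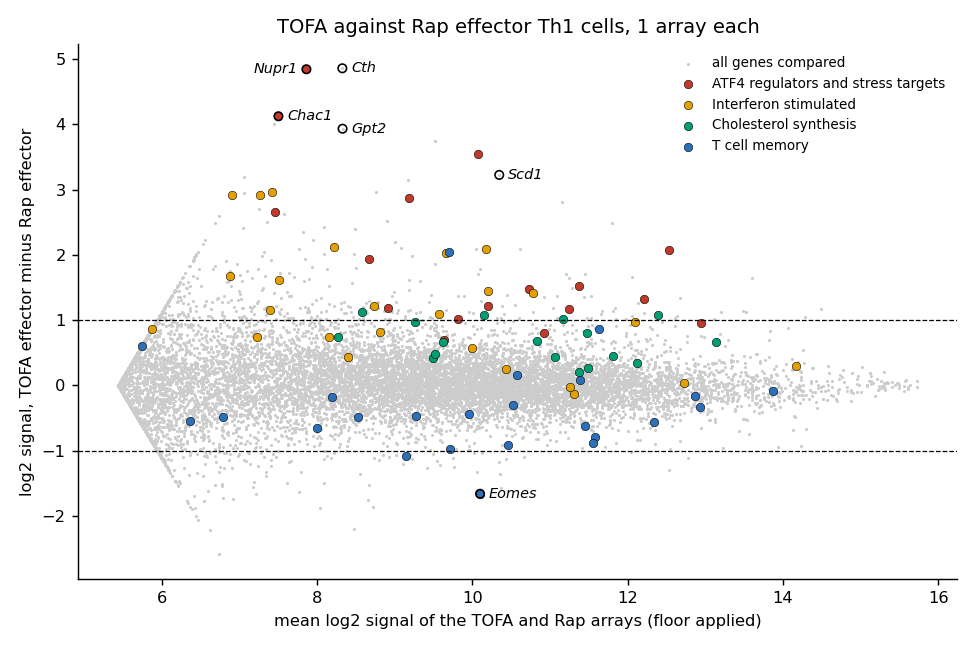
Each point is 1 of the 12783 genes compared, with its mean log2 signal over the TOFA and Rap arrays on the x axis and the log2 signal of TOFA minus Rap on the y axis; dashed lines mark 2-fold, filled colours mark members of 4 gene lists, and open circles mark named genes. ATF4 and interferon stimulated genes lie mostly above the upper line, cholesterol synthesis genes between 0.20 and 1.13, and most T cell memory genes below 0, down to -1.66 for Eomes.

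The identity of both samples was checked against marker genes. All 5 measured T helper markers (Cd4, Cd3d, Cd3e, Cd3g and Thy1) and all 5 Th1 markers were above the floor on both arrays. The T-bet gene Tbx21 had a signal of 2401 in TOFA and 2967 in Rap cells. Ifng, the gene of interferon-gamma, had 2301 in TOFA and 980.1 in Rap cells and was 2.35-fold higher in TOFA cells. The summed signal of the T helper markers was 31198 in TOFA and 35287 in Rap cells. Markers of other cells were mostly low but not all absent. Of 6 measured B cell markers, 4 were above the floor in TOFA and 5 in Rap cells, with summed signals of 2203 and 2399, most of it from Ighm. Ighm had 1814 in TOFA and 1646 in Rap cells, above Cd4 at 536 and 525. Of 8 myeloid markers, 4 and 3 were above the floor, with sums of 476 and 284. The dendritic cell markers summed to 1014 in TOFA and 1809 in Rap cells. Most of this came from the MHC class II genes H2-Aa (220.0 and 799.9) and H2-Ab1 (572 and 658). No neutrophil marker was above the floor in TOFA cells and 1 of 6 was in Rap cells, and of the 3 measured NK cell markers none was in TOFA cells and 1 was in Rap cells. In bulk samples such as these, fewer cells of a type and less RNA per cell cannot be told apart.

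Genes of the ATF4 response stood furthest apart. Of 17 ATF4 regulators and stress targets compared, 14 passed 2-fold on the higher side, against 3.25% of all genes, none was lower, and the list median was 1.48 on the log2 scale, against 0.02 over all genes compared. All 17 lay above 0, against 52.8% of all genes. Atf4 itself had a signal of 12163 in TOFA and 2881 in Rap cells, a 4.22-fold difference. Its other 2 probe sets differed by 2.12 and by at least 0.17 on the log2 scale. The latter had 48.9 in TOFA cells and was under the floor in Rap cells. Ddit3, the stress transcription factor CHOP, had 4472 and 1560.4 (2.87-fold), with 0.31 on its other probe set. Chac1, an ATF4-induced enzyme that degrades glutathione, had a signal of 756 in TOFA cells and 37.6, under the floor, in Rap cells, so that it was at least 17.4-fold higher. Nupr1, a stress-induced chromatin protein, had 1246 in TOFA and 17.4 in Rap cells (at least 28.7-fold), and its other probe set differed by 4.66. Both genes were thus well measured on the TOFA array and not above the floor on the Rap array.

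Further members went the same way over a wide range of levels. Trib3, a pseudokinase induced by ATF4, had a signal of 3672 in TOFA and 314 in Rap cells (11.7-fold), with 3.92 on its other probe set. The transcription factor genes Atf5 (1577 and 215) and Jdp2 (439 and 69.7) were 7.35-fold and 6.30-fold higher. Sesn2, which encodes a leucine sensor that restrains mTORC1, had 797 in TOFA and 209 in Rap cells (3.82-fold). Eif4ebp1, a repressor of translation initiation that mTORC1 phosphorylates, had 7475 and 2989 (2.50-fold). Ppp1r15a, the phosphatase subunit that reverses eIF2alpha phosphorylation, had 728 and 321 (2.27-fold). Herpud1, Vldlr, Cebpb and Stc2 were 2.80-fold, 2.34-fold, 2.26-fold and 2.03-fold higher. The members under 2-fold were Ddit4, Cebpg and Atf3, with differences of 0.95, 0.81 and 0.69.

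**Figure D2:**
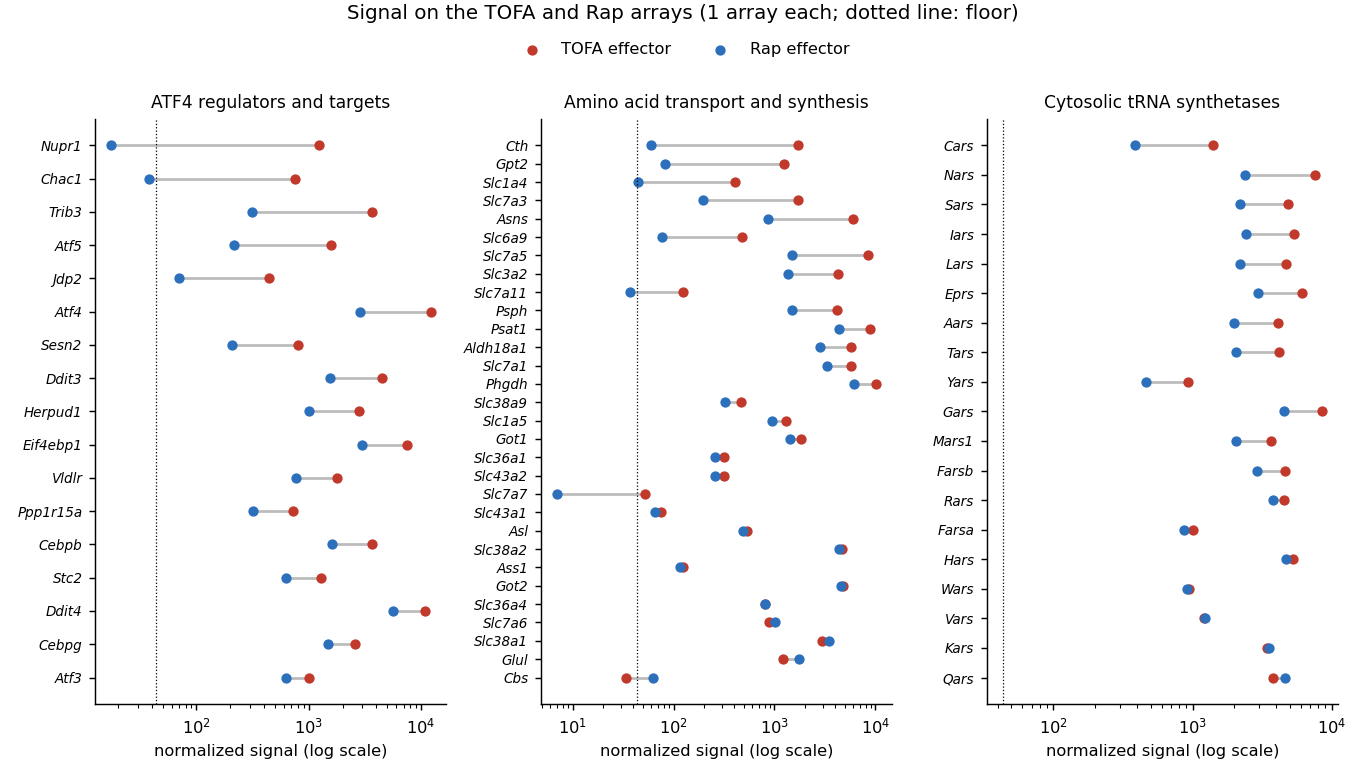
Each row is a gene, with its normalized signal on a log axis in TOFA effector cells (red) and Rap effector cells (blue), 1 array each; the dotted line is the floor of 43.4. The TOFA signal is higher for every ATF4 regulator and target shown, for the transporters and enzymes at the top of the middle panel, and for the upper 16 of 19 tRNA synthetases.

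Promoters of the genes that moved together were searched for the C/EBP-ATF response element, the sequence ATF4 is known to bind, written as TGATGNAA or TTNCATCA for the other strand. The RefSeq promoters of the C57BL/6J reference (build GRCm38.p6) span 250 bases before to 50 after each start site, and 61 compared members of the ATF4, amino acid, one-carbon and tRNA synthetase lists had one. A match was found for 13 of the 29 that passed 2-fold on the higher side and for 4 of the other 32, against 4.51% of 27025 genes (3.97% of 32851 promoters). A match of letters describes the window and is not evidence of binding. The 5 genes past 2-fold with the largest differences whose match lies wholly before the start site are shown 5′ to 3′, with matches in capitals. The whole 250 bases are given for Chac1 and 80 bases for the others, at chr7:126625537-126625616 (minus strand) for Nupr1, chr2:119350992-119351241 (plus) for Chac1, chr6:7693210-7693289 (minus) for Asns, chr12:85599336-85599415 (plus) for Jdp2 and chr3:50443617-50443696 (minus) for Slc7a11.
Nupr1: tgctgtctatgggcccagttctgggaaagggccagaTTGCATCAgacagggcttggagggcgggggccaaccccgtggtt
Chac1: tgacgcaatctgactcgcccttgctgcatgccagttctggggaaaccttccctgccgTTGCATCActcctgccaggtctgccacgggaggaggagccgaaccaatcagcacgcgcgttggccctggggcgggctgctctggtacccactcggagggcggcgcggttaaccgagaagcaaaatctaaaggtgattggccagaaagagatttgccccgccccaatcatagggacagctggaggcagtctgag
Asns: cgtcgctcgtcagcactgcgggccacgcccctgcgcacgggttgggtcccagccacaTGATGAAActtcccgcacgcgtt
Jdp2: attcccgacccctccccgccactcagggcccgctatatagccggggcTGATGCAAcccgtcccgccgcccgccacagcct
Slc7a11: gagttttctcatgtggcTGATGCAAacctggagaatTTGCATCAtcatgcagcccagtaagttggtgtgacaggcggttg
The matches begin 110 bases before the start site in Nupr1, 193 in Chac1, 23 in Asns and 33 in Jdp2. Slc7a11 holds one at 66 and one at 47 bases before its start site, on opposite strands.

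Amino acid supply genes differed in part. Past 2-fold on the higher side were 6 of 17 amino acid transporter genes, against 3.25% of all genes, with none on the lower side (median 0.46). Slc7a5 and Slc3a2, whose products pair to import leucine and other large neutral amino acids, had signals of 8419 and 4295 in TOFA cells, against 1496 and 1372 in Rap cells (5.63-fold and 3.13-fold). The neutral amino acid carrier Slc1a4 had 405 in TOFA and 44.2 in Rap cells (9.15-fold), the cationic carrier Slc7a3 1720.3 and 194 (8.87-fold), and the glycine carrier Slc6a9 475 and 77.0 (6.16-fold). Slc7a11, the cystine importer whose promoter is printed above, had 124 in TOFA cells and 37.4, under the floor, in Rap cells (at least 2.85-fold). The other 11 transporters lay between -0.20 and 0.79 on the log2 scale, the glutamine carriers Slc38a1 and Slc38a2 at -0.20 and 0.13.

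The enzymes of amino acid synthesis had 6 of 13 genes past 2-fold, all higher in TOFA cells, against 3.25% of all genes (median 0.75). Cth, the enzyme that releases cysteine from cystathionine, had a signal of 1726 in TOFA and 59.5 in Rap cells, a 29.0-fold difference. Gpt2, the mitochondrial transaminase that makes alanine and alpha-ketoglutarate, had 1255 and 82.2 (15.3-fold), and its other 3 probe sets differed by 1.90 to 3.26. Asns, asparagine synthetase, had 6007 and 859 (7.0-fold), with 3.16 on its other probe set. Of the serine pathway, Psph (2.82-fold) and Psat1 (2.04-fold) were past 2-fold and Phgdh, at 0.75, was not. The proline enzyme Aldh18a1 was 2.03-fold higher, whereas Glul, glutamine synthetase, differed by -0.54. The folate one-carbon list had no common direction. The mitochondrial enzymes Aldh1l2 (694 in TOFA and 38.1 in Rap cells, at least 16.0-fold), Shmt2 (3109 and 1214, 2.56-fold), Mthfd2 (0.88) and Mthfd1l (0.58) were above 0, while the mitochondrial Mthfd2l stood at -0.40, the cytosolic Shmt1 at -0.49 and thymidylate synthase, Tyms, at -0.63. The list as a whole had a median of 0.04, with 2 of 10 members past 2-fold.

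Cytosolic tRNA synthetases, which charge tRNAs with their amino acids, had 9 of 19 members at least 2-fold higher in TOFA cells, against 3.25% of all genes. None was 2-fold lower, and the median was 0.91. Cars had a signal of 1395 in TOFA and 384 in Rap cells (3.64-fold). Its other probe set had 56.3 and 5.28, the last under the floor, and so differed by at least 0.38. Nars had 7562 and 2381 (3.18-fold), with 1.78 on its other probe set. Sars, Iars, Lars, Eprs, Aars, Tars and Yars lay between 2.0-fold and 2.21-fold. The synthetases did not move as 1 block, since Hars, Wars, Vars, Kars and Qars lay between -0.30 and 0.17.

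In the cysteine and glutathione list, 6 of 15 members were at least 2-fold higher, against 3.25% of all genes, and none was 2-fold lower (median 0.35). Besides Cth and Slc7a11, which the lists share, these were the haem oxygenase gene Hmox1 (388 in TOFA and 59.9 in Rap cells, 6.48-fold), the quinone reductase gene Nqo1 (166 and 48.1, 3.46-fold), Gstm1 (123 and 45.1, 2.72-fold, with 0.32 and 0.50 on its other probe sets) and Srxn1 (129 and 62.2, 2.07-fold). The last is uncertain, since its other 3 probe sets differed by -0.24 to 0.28. Genes that make glutathione itself were under 2-fold, with Gclm at 0.57 and Gclc at -0.04. Hmox1 is also abundant in macrophages, and myeloid markers were also mostly higher (7 of 8 compared members above 0, median 0.28), with Mpeg1 at 155 in TOFA and 25.1 in Rap cells and C1qa, Lyz2 and Itgam at the floor in both. The part of such cells in these differences was not tested.

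Cholesterol synthesis genes were higher in TOFA cells as a group. All 17 compared lay above 0, against 52.8% of all genes. At least 2-fold higher were 4, against 3.25% of all genes, and the median was 0.67. Of these 4, Fdps, Lss and Cyp51 were under 2-fold with the mean over all probe sets of a gene (0.97, 0.96 and 0.79). Tm7sf2, a sterol reductase, had a signal of 565 in TOFA and 258 in Rap cells (2.19-fold). Fdps, which makes farnesyl diphosphate, had 7801 and 3685 (2.12-fold), Lss, which closes the sterol ring, 1649 and 779.6 (2.12-fold), and the lanosterol demethylase gene Cyp51 3264 and 1618 (2.02-fold). The early enzyme Hmgcs1 had 11286 and 7138, a difference of 0.66, and Sqle had the smallest difference, 0.20. Their regulators differed less. Srebf1 had 4425 in TOFA and 2812 in Rap cells (0.65), Srebf2 1695 and 1462 (0.21), and Insig1, a sterol-regulated retention protein of SREBP, 2563 and 1643 (0.64), while Scap and the protease gene Mbtps1 stood at -0.45 and -0.64. None of the 9 genes of SREBP control was past 2-fold (median 0.21). Abca1, the sterol exporter, was 2.29-fold higher in TOFA cells (619.8 and 270.4).

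A fixed form of the sterol regulatory element, TCACNCCAC or GTGGNGTGA for the other strand, was present in the promoters of 1 of 40 compared members of the 3 sterol and fatty acid lists and of 1.44% of all genes. The member was Hmgcs1, whose match begins 137 bases before the start site. Its sequence at chr13:119690178-119690257 (plus strand) is shown as the only match in these lists, with the match in capitals.
Hmgcs1: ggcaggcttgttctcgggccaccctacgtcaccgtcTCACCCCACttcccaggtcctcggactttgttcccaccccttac
For the other members the result says only that these letters are not in this window.

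Within fatty acid synthesis, the desaturase genes Scd1, Scd2 and Fads2 and the genes Me1, Acss2 and Elovl7 were past 2-fold, whereas the carboxylase and synthase genes were not. Of 23 genes compared, 6 passed 2-fold, each with the higher signal in TOFA cells, against 3.25% of all genes, and the list median was 0.21. Of these 6, Scd2 and Elovl7 were under 2-fold with the values as deposited (0.90 and 0.997), and Acss2 was with the mean over probe sets (0.096). The other probe set of Acss2 above the floor differed by 2.10, in the same direction. Scd1, which introduces the first double bond into saturated fatty acids, had a signal of 3976 in TOFA and 425 in Rap cells, a 9.35-fold difference, with 2.38 on its other probe set. Scd2, the gene of a related desaturase, was among the brightest of the list at 34547 and 15290.5 (2.26-fold). Fads2, which desaturates polyunsaturated fatty acids, had 1187 and 300.4 (3.95-fold), and its other 2 probe sets differed by 1.88 and 1.94. Me1, a source of NADPH, had 519.6 and 151 (3.45-fold) and Acss2, which makes acetyl-CoA from acetate, 440.2 and 185 (2.38-fold). Elovl7, an elongase gene, was 2.01-fold higher, and its other 3 probe sets differed by 0.02 to 0.51. Against this, Acaca, the gene of Acc1, had 857 in TOFA and 816 in Rap cells (0.07), Fasn 3150.5 and 2921 (0.11) and Acly 0.18. Acacb, the second carboxylase gene, was near or under the floor at 51.6 and 8.43.

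Fatty acid oxidation genes were above 0 for 17 of 19 members, against 52.8% of all genes. No member was past 2-fold, and the median was 0.33. Eci1, an isomerase for unsaturated fatty acids, had 674 in TOFA and 375 in Rap cells (0.85), and the rate-limiting transferase gene Cpt1a stood at 0.45, against -0.43 for Cpt2.

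**Figure D3:**
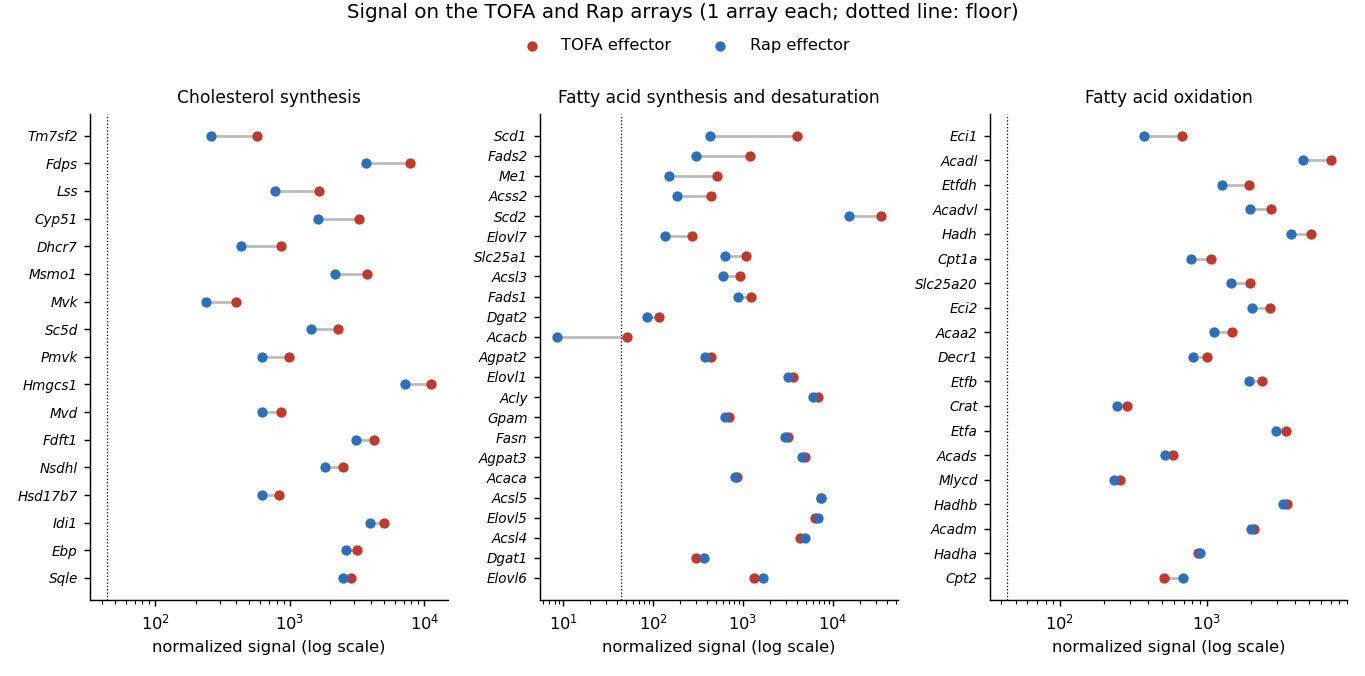
Each row is a gene, with its normalized signal on a log axis in TOFA effector cells (red) and Rap effector cells (blue), 1 array each; the dotted line is the floor of 43.4. The TOFA signal is higher for all 17 cholesterol synthesis genes, and in the middle panel Scd1, Fads2, Me1, Acss2, Scd2 and Elovl7 stand at least 2-fold apart while Acaca and Fasn nearly coincide.

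Antiviral interferon stimulated genes were the next group. Of 25 compared, 13 passed 2-fold with the higher signal in TOFA cells, against 3.25% of all genes, and none was 2-fold lower. Above 0 lay 23, against 52.8% of all genes, and the median was 1.09. Ifit1 and Ifit3, which restrain viral translation, had signals of 479 and 424 in TOFA cells, against 61.2 and 56.2 in Rap cells (7.83-fold and 7.55-fold). The antiviral GTPase gene Mx1 had 623 and 143 (4.37-fold), and Mx2 had 328 and 17.0, the last under the floor (at least 7.55-fold). Usp18, which limits signalling from the type I interferon receptor, had 2382 and 557 (4.27-fold). The RNA sensor genes Ifih1, Dhx58 and Ddx58 were 2.72-fold, 2.33-fold and 2.13-fold higher, and the tethering factor gene Bst2 2.67-fold. The other 2 probe sets of Dhx58 differed by -0.72 and 0.48, both near the floor with 1 array under it. Rtp4 had 1641 and 401 (4.10-fold). Its other probe set differed by at least 0.30, with 53.2 in TOFA cells and a signal under the floor in Rap cells. Ifi202b, an interferon-inducible DNA-binding protein outside the list, had 2675 in TOFA and 199 in Rap cells (13.4-fold).

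The difference did not extend to all interferon targets. Zbp1 and Isg20 stood at -0.02 and -0.13, and Ifi27l2a, bright on both arrays at 20437 and 16692, at 0.29. None of 11 interferon-gamma induced GTPase genes was past 2-fold (median -0.10), although Ifng was 2.35-fold higher in TOFA cells. Likewise none of 12 genes of MHC class I antigen processing was (median -0.08). Type I interferon can also come from myeloid cells, whose markers had the values given above, and their part was not tested.

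The interferon stimulated response element, searched on both strands as GAAA, any 2 bases and GAAA, was present in the promoters of 6 of 8 list members past 2-fold and of 2 of the 8 others with a promoter, against 3.99% of all genes. The 4 members with the largest differences among those with a match before the start site are shown, with matches in capitals, at chr19:34640769-34640848 (plus strand) for Ifit1, chr19:34583372-34583451 (plus) for Ifit3, chr12:26456528-26456607 (minus) for Rsad2 and chr8:71537552-71537631 (minus) for Bst2.
Ifit1: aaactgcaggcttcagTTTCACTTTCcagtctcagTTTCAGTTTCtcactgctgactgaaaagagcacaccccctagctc
Ifit3: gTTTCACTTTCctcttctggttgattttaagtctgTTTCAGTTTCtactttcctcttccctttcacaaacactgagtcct
Rsad2: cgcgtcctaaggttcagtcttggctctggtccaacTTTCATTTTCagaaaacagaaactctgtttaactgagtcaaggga
Bst2: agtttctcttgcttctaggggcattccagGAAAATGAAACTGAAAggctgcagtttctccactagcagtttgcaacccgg
Rsad2 had a signal of 210.5 in TOFA and 65.7 in Rap cells (3.20-fold higher), with -0.59 and at least 0.79 on its other probe sets. The last of these was under the floor in Rap cells. Ifit1 and Ifit3 each hold 2 separate matches, and the 2 matches of Bst2 overlap.

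**Figure D4:**
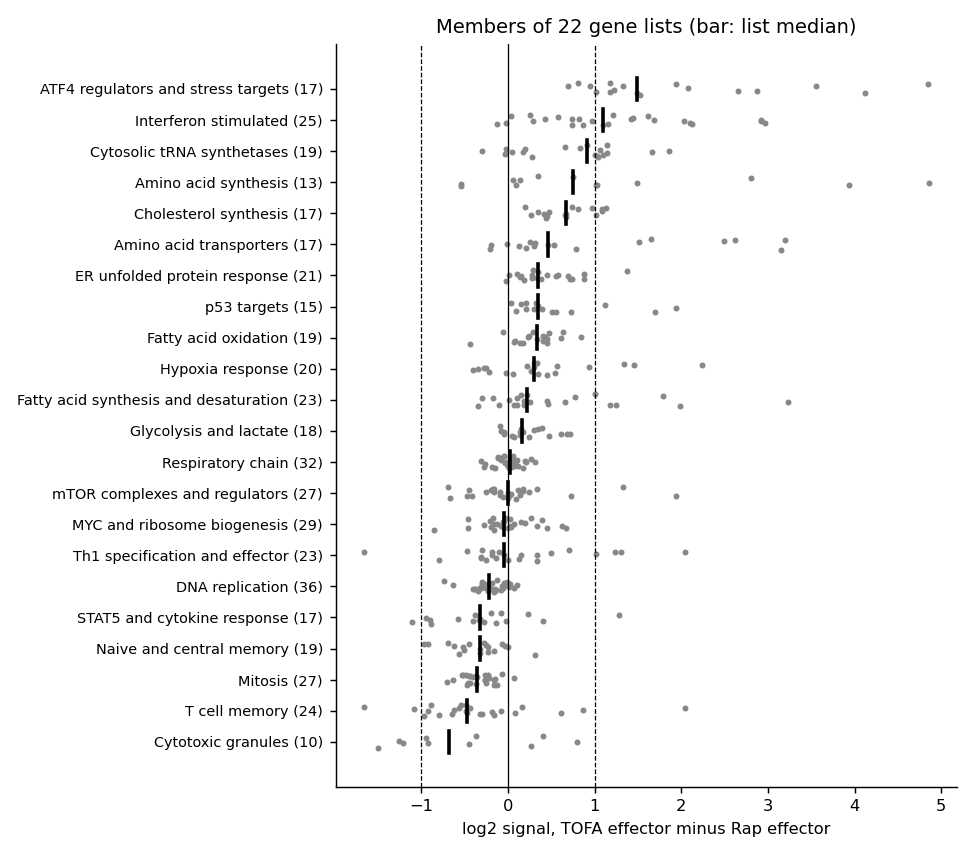
Each point is a member of 1 of 22 gene lists (number of genes compared in brackets) at its log2 signal of TOFA minus Rap; the bar is the list median and dashed lines mark 2-fold. List medians run from -0.68 for cytotoxic granule genes to 1.48 for ATF4 regulators and targets, with respiratory chain, mTOR and MYC lists close to 0.

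Most genes of the T cell memory list and of the naive and central memory list were lower in TOFA cells. These lists share Klf2, Cd27, Ccr7, Bach2 and Il7r, all below 0. Of 24 genes of the T cell memory list, 19 lay below 0, against 47.1% of all genes, 2 were at least 2-fold lower, against 1.35% of all genes, 1 was higher, and the median was -0.48. Eomes, a T-box transcription factor of memory and cytotoxic T cells, had a signal of 616 in TOFA and 1948 in Rap cells, 3.16-fold lower in TOFA cells, and its other probe set differed by -1.33. Id3, an inhibitor of E proteins linked to long-lived T cells, had 389 and 821 (2.11-fold lower). Klf2, a transcription factor of quiescence, had 600.5 and 1175 (-0.97), the costimulatory receptor gene Cd27 1019.6 and 1925 (-0.92), and Il2rb, the receptor chain for IL-2 and IL-15, 2214 and 4097 (-0.89). The member past 2-fold on the higher side was Ccl5, a chemokine stored by memory cells, at 1691 in TOFA and 409 in Rap cells (4.13-fold higher). The others above 0 were Cd69 (0.86), Itgae (0.61, with the Rap signal under the floor), Zeb1 (0.17) and Cd44 (0.08). The lymph node homing receptor gene Ccr7 stood at -0.57 and the IL-7 receptor gene Il7r at -0.16. Some members were lower on the memory array than on the naive array, such as Klf2 (8746 and 14239), Cd27 (2062 and 5661) and Ccr7 (3604 and 10056). Others were higher there, such as Cxcr3 (4799 and 432) and Ccl5 (3708 and 1079). The list therefore does not describe the memory array of this series. Within the naive and central memory list 17 of 19 members lay below 0, against 47.1% of all genes, with none past 2-fold (median -0.32). They include Foxp1 (-0.69) and Bach2 (-0.62). Of Bach2, the other 2 probe sets went opposite ways, at -0.80 and 0.48. The FOXO1 and quiescence list had no common direction, with a median of 0.03. Klf3 (2.13-fold) and Irs2 (2.06-fold) were lower, while Tsc22d3 (0.98) and Slfn2 (0.93) were higher, both under 2-fold.

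Of 10 cytotoxic granule genes compared, 7 lay below 0, against 47.1% of all genes, and the list median was -0.68. At least 2-fold lower in TOFA cells were 3, against 1.35% of all genes. The 3 above 0 were Serpinb6b (1919 in TOFA and 1101 in Rap cells, 0.80), Srgn (20379 and 15371, 0.41) and Serpinb9 (0.26). Gzma had a signal of 116 in TOFA and 328 in Rap cells (2.83-fold lower), Ctsw 561 and 1338 (2.38-fold) and Nkg7 505 and 1172 (2.32-fold). Gzmb, the brightest granzyme gene, had 13979 and 26476 (1.89-fold), and the perforin gene Prf1 111 and 214 (-0.95, with 0.15 on its other probe set). Granzymes D to G, K and M were at the floor on both arrays. These are also genes of NK and CD8 T cells. Both CD8 markers were above the floor on both arrays, Cd8b1 with 297 in TOFA and 316 in Rap cells and Cd8a with 57.6 and 84.3, a sum of 354 in TOFA and 400 in Rap cells. Of the 3 NK markers, Ncr1 and Klra8 were at the floor on both arrays and Klre1 had 38.6 and 51.9, a sum of 63.9 in TOFA and 68.2 in Rap cells. The wider NK list had 4 of 6 compared members below 0 (median -0.18), against 47.1% of all genes. Gzma is itself one of these 4, and the others were Klrk1 (-0.30), Klre1 (-0.26) and Klrc1 (-0.10). The receptor genes Klrk1 (1372 and 1686) and Klrd1 (362 and 286) of that list were well above the floor. The part of such cells in the granule gene difference was not tested.

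Among 23 Th1 genes, 4 were higher and 1 lower by 2-fold, against 3.25% and 1.35% of all genes, with a median of -0.04. The cytokine genes Ifng and Csf2 (107 in TOFA cells and 8.47, under the floor, in Rap cells, at least 2.47-fold) and the receptor gene Cxcr6 (2.02-fold) were on the higher side with Ccl5, and Eomes was the lower one. Tbx21 differed by -0.31, Il12rb2 by -0.25 and Prdm1, the gene of Blimp-1, by -0.47. Il21, a cytokine of follicular helper and Th17 cells, had 664 and 292 (2.27-fold higher), with 0.25 on its other probe set. Ccr6 was 2.50-fold lower (67.1 and 168).

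STAT5 and cytokine response genes were below 0 for 14 of 17 members, against 47.1% of all genes, with a median of -0.32. By at least 2-fold 1 was lower and 1 higher, against 1.35% and 3.25% of all genes. Pim2, a survival kinase induced by IL-2, had 4754 in TOFA and 10269 in Rap cells (2.16-fold lower), and the feedback regulator genes Socs2 and Socs3 stood at -0.94 and -0.89. Il2ra, the inducible IL-2 receptor chain, had 7160.3 and 8999 (-0.33). Tnfrsf9, the costimulatory receptor 4-1BB, was 2.43-fold higher (1086 and 448), yet its other 2 probe sets differed by -0.62 and 0.40. In the TCR immediate early list, which had no common direction (median -0.08), Egr1 (966 and 351, 2.75-fold), Ier3 (2.59-fold) and Fosl2 (2.21-fold) were higher and Fos (502 and 1117, 2.22-fold) was lower. Myc had 4884 in TOFA and 8783 in Rap cells (-0.85), while the 29 MYC and ribosome biogenesis genes had a median of -0.04 with none past 2-fold.

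**Figure D5:**
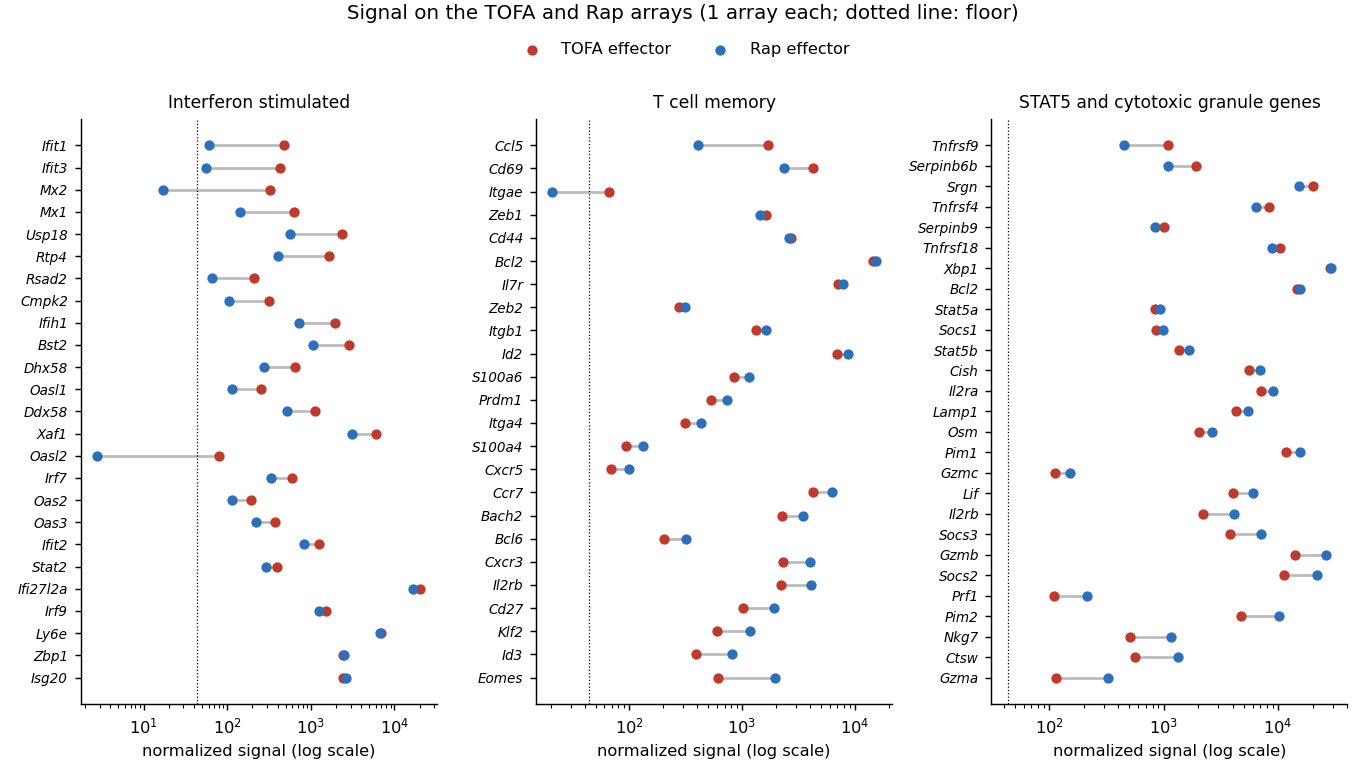
Each row is a gene, with its normalized signal on a log axis in TOFA effector cells (red) and Rap effector cells (blue), 1 array each; the dotted line is the floor of 43.4. The TOFA signal is higher for 23 of the 25 interferon stimulated genes and lower for 19 of the 24 memory genes, with Ccl5 and Eomes at the ends of the middle panel.

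Cell division genes were lower in TOFA cells by small amounts. Of 27 mitosis genes, 26 lay below 0, against 47.1% of all genes, and none was past 2-fold (median -0.35). Mki67 had 13229.5 in TOFA and 15835 in Rap cells, and the kinetochore gene Cenpf 2359.6 and 3849.6 (-0.71). Of 36 DNA replication genes, 31 lay below 0, none past 2-fold (median -0.22). The cell cycle inhibitor gene Cdkn1a (p21) had 4252 and 1308 (3.25-fold higher), with 1.81 on its other probe set. It is a target of p53, whose list had all 15 members above 0, against 52.8% of all genes (median 0.35). Past 2-fold on the higher side were 3, against 3.25% of all genes. The other 2 of the 3 were Sesn2 and the DNA damage response gene Gadd45a (2.18-fold), while Mdm2, the p53 feedback ligase, stood at 0.20 and the death gene Bbc3 at 0.73.

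Energy and stress programmes differed to unequal degrees. The endoplasmic reticulum list had 20 of 21 members above 0, against 52.8% of all genes, and a median of 0.35. Hyou1, a chaperone, was 2.59-fold higher (1455 and 561), though 0.53 and at least 0.14 on its other probe sets. The chaperone gene Hspa5 had 23122 in TOFA and 12632 in Rap cells (0.87, with -0.23 and 0.96 on its other probe sets). In the hypoxia list, 3 of 20 members were at least 2-fold higher, against 3.25% of all genes (median 0.30). They were Selenbp1 (536 and 114, 4.71-fold, with 2.47 on its other probe set), Adm (119 and 43.3, the last at the floor, at least 2.74-fold) and the protein folding oxidase gene Ero1a (10385 and 4118, 2.52-fold). Glycolysis genes had a median of 0.16 with none of 18 past 2-fold, the lactate carrier gene Slc16a1 (0.71) and Aldoc (0.68) leading. Respiratory chain (median 0.02 over 32 genes), TCA cycle (0.11 over 17) and cytosolic ribosomal protein genes (-0.00 over 21) had no member past 2-fold. The mTOR list, genes of the complexes and their regulators, had a median of -0.00 over 27 members, and its 2 members past 2-fold, Sesn2 and Eif4ebp1, are also in the ATF4 list. Mtor had 1098 and 1167.

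Together the ATF4, amino acid, one-carbon, glutathione and tRNA synthetase lists held 41 of the 415 genes that were at least 2-fold higher (9.88%), the interferon list 13 and the sterol and fatty acid lists 10. None of the 172 lower genes was in these lists, which held 89, 25 and 49 compared genes. Over all genes 1.35% were lower, a share at which few would fall in lists of this size. Most genes past 2-fold were in no list at all, 331 of the higher (79.8%) and 155 of the lower ones (90.1%). The same was true of all genes, since 11952 of the 12783 compared were in no list. Among the 15 furthest higher genes, those in no list were Ifi202b, Angptl6 and Cox6a2. Angptl6, a secreted angiopoietin-like protein, had a signal of 1211 in TOFA and 155 in Rap cells (7.82-fold), and Cox6a2, a muscle-type subunit of cytochrome oxidase, 372 and 48.0 (7.73-fold), with 0.92 on its other probe set. Anxa1, the phospholipid-binding protein annexin A1, was 4.03-fold higher (711 and 177).

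The 15 genes furthest lower in TOFA cells were dimmer and more mixed. Frat2, a binding protein of the kinase GSK3, had a signal of 14.0, under the floor, in TOFA cells and 261 in Rap cells (at least 6.02-fold lower). Ccn3, a matricellular protein, had 165 in TOFA and 759 in Rap cells (4.60-fold), with -1.94 on its other probe set, and Nav1 had 45.8 and 213 (4.64-fold), with -1.39. The matrix protein gene Fbln2 (25.1 and 180.3) and the corepressor gene Rcor2 (26.1 and 174) were lower by at least 4.16-fold and 4.02-fold. Nt5e, the ectoenzyme CD73 that makes adenosine, had 220.1 and 739.8 (3.36-fold), with -0.98 on its other probe set. Itgb3, which was not among the 15, was 3.17-fold lower on its brightest probe set. It stood at 0.21 or above on the other, with 50.15 in TOFA cells and a signal under the floor in Rap cells. Golga7b, Cuzd1, Sorbs3, Vmn1r58, Sncb and Cpe completed the set with H2-Ea, H2-Aa and Igkv8-30, all with a signal of at most 220.0 in Rap cells apart from the MHC genes.

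Some of these lower genes are marks of antigen presenting or B cells. H2-Ea and H2-Aa, chains of MHC class II, had signals of 137 and 220.0 in TOFA cells, against 502 and 799.9 in Rap cells (3.66-fold and 3.64-fold lower), and H2-Eb1 was 2.18-fold lower. H2-Ab1 did not follow them, at 572 and 658 (-0.20), with 0.58 and 1.08 on its other probe sets. The antibody gene Igkv8-30 had 50.4 and 172 (3.42-fold lower) and the B cell receptor gene Cd22 60.8 and 175 (2.88-fold lower), while Ighm had 1814 and 1646. In the dendritic cell list 6 of 7 compared members lay below 0 (median -0.55), against 47.1% of all genes. This list holds H2-Aa, H2-Eb1, H2-Ab1 and Cd74, so it largely repeats the MHC class II values. Its other compared members were Batf3 (0.20), Zbtb46 (-0.11) and Flt3 (-0.55, with the TOFA signal under the floor). Itgax, Siglech, Xcr1 and Ccr9 were at the floor on both arrays. In the B cell list 6 of 10 members lay below 0 (median -0.26), with Cd79a, Fcrla and Ly6d at the floor on both. Vpreb3 (0.75), Fcmr (0.18), Ighm (0.14) and Ebf1 (0.12) were above 0. The part of such cells in the MHC class II difference was not tested.

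Just past the 2-fold limit on the higher side were Yars (922 in TOFA and 461 in Rap cells), Gab2 (319 and 159, though -0.72 on its other probe set) and Kcng2 (87.0 and 14.2, the last under the floor). Just short of it were Zxda (182 and 91.0), Rnd2 (86.6 and 23.6) and Cd300ld (86.6 and 37.2), the last 2 with the Rap signal under the floor. On the lower side 1810064F22Rik (30.1 and 87.1), Serf1 (233 and 468) and Spin2c (128 and 256) stood just past the limit. Zfp748 (194 and 387), Ubap2 (497 and 992) and Rbms3 (26.7 and 86.5) stood just short of it. Genes on either side of the limit differed from each other by less than the spread between probe sets.

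The memory and naive arrays, which share no array with the comparison above, give the levels of the same genes in cells taken directly from the spleen. Scd1 had a signal of 2608 in memory and 731 in naive cells, Eomes 188 and 245, Gpt2 60.8 and 20.5, and Chac1 39.4 and 37.1, both under the floor. Eomes was therefore higher on both effector arrays than on either of these. Of the genes higher in TOFA cells, 371 could be compared, and 111 (29.9%) had a memory signal at least 2-fold above the naive one and 16 (4.31%) one as far below it. Of 143 compared genes lower in TOFA cells these counts were 37 (25.9%) and 21 (14.7%). Among all 11698 genes measured in both comparisons the shares were 10.6% and 4.27%, and among all 13014 genes compared between memory and naive cells 12.3% and 4.13%. The memory array also had far more signal from other spleen cells, with Mpeg1 at 14666 in memory and 187 in naive cells and H2-Aa at 23624 and 5341, and the part of such cells in these shares was not tested.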

How the data were processed

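Gene expression was measured on 1 Affymetrix array per group in 5 groups. The authors used GCOS and Affymetrix Expression Console, per the submitters' processing notes; neither version nor summary method is stated there. The deposited values are intensity on a linear scale for each probe set, and their mean after trimming 2% at each end was 500.003 on every array, which shows a scaling to a target of 500. Median deposited signals were 63.1 in TOFA, 66.9 in Rap, 99.5 in memory, 68.7 in control effector and 74.2 in naive cells. The ratio of 3' to 5' control probe sets, a sign of RNA quality, was 0.838 in TOFA and 0.832 in Rap cells for Gapdh and 1.26 and 1.35 for beta-actin. An array has no read depth, and the signal over the floor takes its place.

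After 64 control probe sets were set aside, all 5 arrays were quantile normalized, since their medians spanned 0.658 on the log2 scale. In the platform's 2016 annotation 34945 of 45037 probe sets had 1 gene symbol, 932 had more than 1 and 9160 lacked one. Entrez identifiers of 34741 were found in RefSeq, and 0 symbols changed. The brightest probe set by mean log2 over the 5 arrays stood for each of 18193 genes. Signals were raised to the floor, log2 was taken, and no test was made. The 58 gene lists held 1078 entries, of which 970 were measured by a probe set with 1 symbol; the others were not analysed here. The members and lists were chosen with earlier results of these data known. Named genes were fixed genes, the 15 furthest in each direction (past 2-fold, brighter array at or above the 60th percentile, no other probe set above the floor going the opposite way, predicted genes skipped), list members past 2-fold or among the 4 largest differences of a list, and the 3 nearest to the limit on each side. Further list members were named after their values were seen, to describe a list. Alternatives were the deposited values, normalization of the TOFA and Rap arrays alone, other floors, an added constant, the mean over probe sets, and leaving out _x_at and _s_at probe sets. The procedure was tested on simulated data. Python 3.11.15, pandas 2.3.3 and numpy 2.4.6 were used.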

Additional observations from a re-analysis of the deposited data

How the results depend on the processing

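The number of genes past 2-fold followed the floor and the fold rule. With a floor at the 20th percentile, 1365 genes were higher and 1058 lower in TOFA cells, 2423 in all, and with a floor at the 60th percentile 194 and 43, 237 in all. A fold rule of 1.5 gave 1252 higher and 787 lower (2039) and a rule of 3 gave 104 and 22 (126). With the values as deposited the counts were 362 and 187, and with the TOFA and Rap arrays normalized alone 445 and 193, so that the direction of the split was kept. The medians of ATF4 regulators (1.40 to 1.56), interferon stimulated genes (0.89 to 1.16), tRNA synthetases (0.91 to 0.92), amino acid synthesis (0.51 to 1.02), amino acid transporters (0.31 to 0.53), cysteine and glutathione (0.15 to 0.36, lowest with a floor at the 60th percentile), cholesterol synthesis (0.55 to 0.71), mitosis (-0.37 to -0.34), T cell memory (-0.53 to -0.31) and cytotoxic granules (-0.71 to -0.42) kept their sign under the 7 alternative settings of normalization, floor and probe sets. The dendritic cell marker median moved to -0.17 with a floor at the 20th percentile and to -0.11 without _x_at and _s_at probe sets, and the median of purine ectoenzymes turned to 0.003881 with the mean over probe sets. Of 122 named genes past 2-fold, 116 remained so with the values as deposited and 96 of 118 with the mean over probe sets, where Gab2 (-0.11) and Itgb3 (0.57) changed sign, as did Srxn1 (-0.24) without _x_at and _s_at probe sets; the cause was not tested. With the mean over probe sets the calls also ended for Ddit3, Stc2, Psat1, Aldh18a1, Slc7a11, Gstm1, Hyou1, Fosl2, Il21, Tnfrsf9, Gpr183, Klf3, Nav1, Cpe, Srxn1 and Serf1, besides the lipid genes named above. With an added constant, 20 calls ended, among them Cyp51, Yars, Oasl1, Id3, Irs2 and H2-Eb1, and with a floor at the 60th percentile 22 of 114, among them Rsad2, Oasl1, Nqo1, Gadd45a, Mpeg1, Cd22, Igkv8-30 and Frat2. No paired analysis was possible because each group has 1 array. Low signal limits the genes near the floor, of which 94 higher and 62 lower ones have only a bound.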

Other observations

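Several lists not described above had small differences between TOFA and Rap cells. Autophagy and lysosome genes had a median of 0.03 over 25 members with none past 2-fold, although the autophagy receptor gene Sqstm1 had a signal of 2707 in TOFA and 1419.7 in Rap cells (0.93, with 0.01 on its other probe set). Apoptosis regulators had a median of 0.04 over 18 members, with the largest difference in Bik at -0.84. Nucleotide synthesis (-0.12 over 17), polyamine metabolism (0.13 over 9), pentose phosphate (0.19 over 6), and DNA methylation and Polycomb genes (-0.05 over 18) had no member past 2-fold, the last including Tet1 at 0.87 and Dnmt3a at -0.58. Inhibitory receptor genes had a median of -0.22 over 10 members, with Lag3 at 152 in TOFA and 285 in Rap cells (-0.90) and Btla at -0.84, while Pdcd1 stood at 0.54 and Nt5e, described above, was the member past 2-fold.

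Adhesion genes had a median of -0.19 over 22 members, with the oxysterol receptor gene Gpr183 (1005 in TOFA and 486 in Rap cells) 2.07-fold higher, and 0.34 on its other probe set. Among T cell signalling genes, Trat1, an adaptor that associates with the T cell receptor, had 1734 in TOFA and 709 in Rap cells (2.45-fold higher), while the list of 19 had a median of -0.16. S100a13 had 2955 and 5990.1 (2.03-fold lower). Serpinb5 had 45.6 and 100.1 (2.19-fold lower), near the floor.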
